A study of Mus musculus with 6 samples.

Results

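The genes described here are those that mark the inhibitory interneurons of the mouse retina, which are the amacrine cells, including the starburst amacrine cells, and the horizontal cells. The rule lists them by name: 10 amacrine transcription factors, 4 genes of dopamine and nitric oxide amacrine cells, 7 other amacrine genes, 5 starburst genes and 6 horizontal cell genes, 32 in all. Of the 35485 genes listed in the files, 31 of these were found by symbol and 29 had enough reads to be tested. The samples were whole retinas of wild type C57BL/6 mice aged 12 weeks, which the study's methods give as male. In the ONC group the optic nerve had been crushed for 10 seconds at 2 mm behind the eye, and in the sham group the nerve had been exposed but left uncrushed. Retinas were taken 2 days after surgery in both groups. Each group had 3 samples, each an RNA pool of 6 retinas from 6 mice, so that the spread between samples is a spread between pools and not between animals.

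Amacrine cells lie in the inner retina and shape the signals that bipolar cells pass to ganglion cells, releasing GABA or glycine together with, in some types, acetylcholine, dopamine, nitric oxide or neuropeptides. Starburst cells are the cholinergic amacrine type and give ganglion cells their direction selectivity. Horizontal cells lie in the outer retina and feed back onto photoreceptor terminals. An optic nerve crush injures the axons of ganglion cells, while neither amacrine nor horizontal cells send an axon into the nerve. Several of the genes named here, among them Calb2, Barhl2, Pax6, Calb1 and the Onecut genes, are also known to be made by ganglion cells.

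The samples held 17343945 to 20358008 exon reads. The share of gene reads that lay on exons was 70.9% to 76.6% in sham and 78.5% to 80.4% in ONC samples, and sham sample 3 was the lowest. Of 9 ganglion cell markers, 8 were lower and 1 was higher in ONC samples with an adjusted p under 0.1, and their summed RPKM, that is, reads per kilobase of exon scaled by the reads of the library, ranged from 432 to 451 in sham and from 319.9 to 337 in ONC samples. In bulk retina, fewer cells of a type and less RNA per cell cannot be told apart. Because the exon share differed, the choice of scale moved every fold change: scaling by all reads on genes, as the deposited RPKM does, shifted the median of all genes by 0.12 on the log2 scale against the TMM scale used in the tests, which takes as reference the bulk of genes that differ little between samples. On the TMM scale 39.0% of the genes with an adjusted p under 0.1 were higher in ONC samples, and on the scale of all gene reads 87.1% were.

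The amacrine and horizontal cell genes mostly showed no change past the test 2 days after ONC (24 of 29), with a small set that was lower. Calb2, Prox1, Barhl2, Calb1 and Megf10 fell, by 15% (Calb1) to 31.5% (Calb2), and no tested gene of these lists rose. In the quasi-likelihood test of edgeR on the exon reads, 5 of 29 genes were lower with an adjusted p under 0.1, against 3.72% of all 13670 genes tested, and 0 were higher, against 2.38%. None of the 29 also passed a fold change of 1.5, the limit used for a call, against 1.66% of all genes in either direction. At an unadjusted p under 0.05 there were 7 of 29, against 2286 of all 13670 genes. The DESeq2 Wald test and limma also gave 0 past both limits. The values given as CPM are exon reads after TMM normalization, scaled to a common library total. On this scale 12 of the 29 genes had every ONC sample below every sham sample, against 10.8% of all genes, and 1 had every ONC sample above, against 11.0%. In the deposited RPKM, a count added after the data were seen, 4 were below (Calb2, Barhl2, Megf10 and Lhx1), against 3.45% of all genes, and 3 were above (Th, Chat and Gbx2), against 25.4%. The median log2 fold change of the 29 was -0.14, with 23 lower and 6 higher, where the median of all genes was 0.01. On the scale of all gene reads their median was -0.02, with 18 lower and 11 higher, and the median of all genes was 0.13. The gap between the members' median and that of all genes was -0.15 on both scales.

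**Figure D1:**
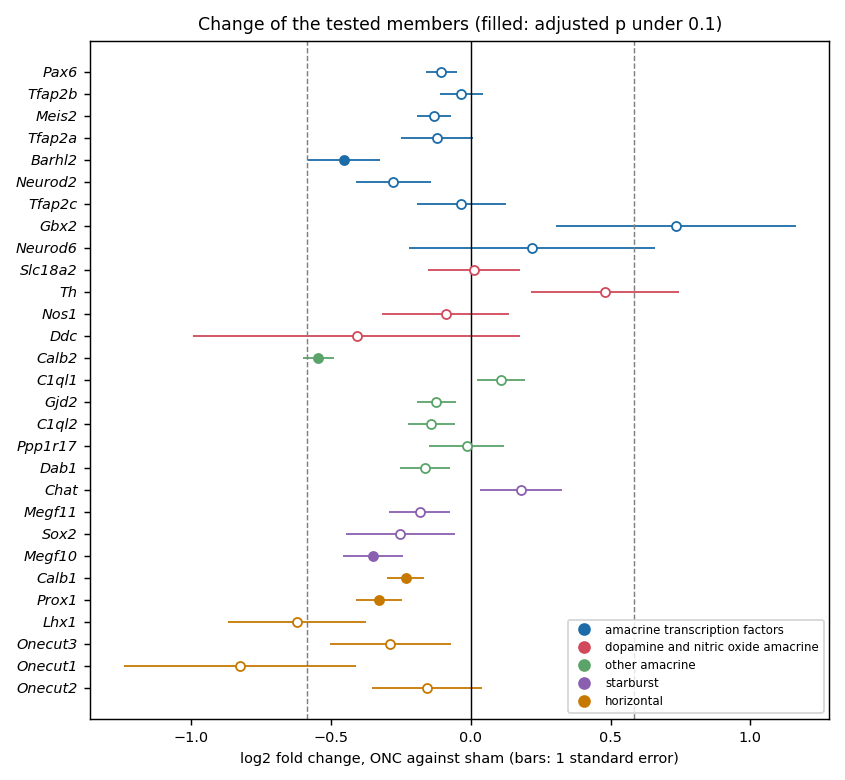
Log2 fold change of each tested gene, ONC against sham (x axis; points are edgeR estimates from 3 samples per group, bars are 1 standard error, filled points have an adjusted p under 0.1 and dashed lines mark a fold change of 1.5). The 5 filled points are Barhl2, Calb2, Megf10, Calb1 and Prox1, all left of 0 and right of the lower dashed line, and the 6 horizontal cell genes all lie left of 0.

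The lists differed in how they spread. The 6 horizontal cell genes were all lower in ONC samples, with a median log2 fold change of -0.31, and 2 of them passed the adjusted p. On the scale of all gene reads their median was -0.19. The 4 tested starburst genes had a median of -0.22, with 3 lower, of which 1 passed. Their median was -0.10 on the scale of all gene reads, -0.09 without ONC sample 2 and -0.36 without ONC sample 1. On unique exon reads, of which Sox2 had none, it was -0.19. Chat was the starburst gene that was higher, at 0.18. The 19 tested genes of the amacrine lists had a median of -0.11, with 14 lower, of which 2 passed, and 5 higher, of which none passed. These medians describe lists of few genes, and no test between the lists was made.

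The levels spanned a wide range. In RPKM 9 of the tested genes had a mean over the 6 samples above 10, 14 lay between 1 and 10, and 6 were at 1 or less. Calb2 was the highest at 202, 203 and 193 in sham and 144, 157 and 145 in ONC samples. Ddc was the lowest of those tested at 0.23, 0.30 and 0.39 in sham and 0.40, 0.23 and 0.13 in ONC samples, with 7 to 21 reads. Pax6, C1ql1, Gjd2, Calb1, Tfap2b, Meis2, Prox1 and C1ql2 were the others above 10. For 5 of the 29 genes no sample reached 100 exon reads, and differences of the size seen for Calb2 could not be resolved in them.

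**Figure D2:**
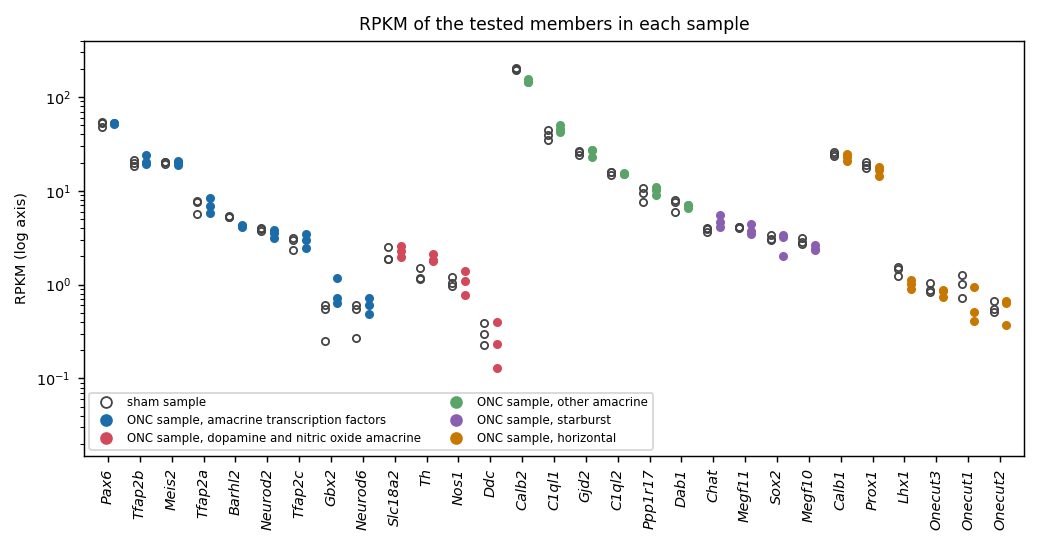
RPKM of the 29 tested genes in each sample (y axis, log scale; open circles are the 3 sham and filled circles the 3 ONC samples, coloured by list). Calb2 stands highest, between 144 and 203, and the sham and ONC circles of most other genes overlap.

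The amacrine transcription factors set and keep the amacrine fate. Barhl2, a homeobox gene needed for several amacrine types, was the only one of the 9 tested whose adjusted p was under 0.1. Barhl2 lies at chr5:106452523-106458166 in the files, whose positions match GRCm38. It measured 16.0, 16.7 and 17.4 CPM in sham and 12.7, 11.7 and 12.2 in ONC samples. The groups did not overlap, and the sham and ONC samples each lay close together. Its log2 fold change was -0.46 with a standard error of 0.13, that is, it fell by 27.1% (edgeR adjusted p = 0.0554). This call did not hold on the scale of all gene reads (-0.33, adjusted p = 0.151), and it held in 2 of the 6 fits that left out 1 sample, with the highest adjusted p, 0.204, without sham sample 3.

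The other amacrine transcription factors did not pass the test. Pax6, which marks amacrine and ganglion cells alike, had an RPKM of 53.3, 54.7 and 48.4 in sham and 53.2, 52.8 and 52.1 in ONC samples. Its log2 fold change was -0.11 with a standard error of 0.06, and 0.02 on the scale of all gene reads, which is 0.12 below the median of all genes in both cases. Tfap2a, Tfap2b and Tfap2c, the AP-2 factors of amacrine cells, had log2 fold changes of -0.12, -0.03 and -0.03, and the sign of Tfap2b and Tfap2c was positive on the scale of all gene reads. Meis2, a homeobox factor of GABA amacrine cells, had a log2 fold change of -0.13 (unadjusted p = 0.0460, edgeR adjusted p = 0.290), with groups that did not overlap in CPM but did in RPKM. Neurod2 measured 15.3, 16.8 and 17.8 CPM in sham and 14.3, 12.1 and 14.8 in ONC samples. The groups of Neurod2 did not overlap in CPM but did in RPKM, with a log2 fold change of -0.28 and a standard error of 0.13 (edgeR adjusted p = 0.306). Neurod6, a marker of amacrine cells that use neither GABA nor glycine, had 14 to 39 reads and a log2 fold change of 0.22 with a standard error of 0.44. Gbx2 had 27, 31 and 13 reads in sham and 63, 38 and 35 in ONC samples, with groups that overlapped in CPM but not in RPKM. Its log2 fold change was the highest of the 29, at 0.73 with a standard error of 0.43 (edgeR adjusted p = 0.411). Ptf1a, which commits precursors to the amacrine and horizontal fates in the embryo, had 0 reads in all 6 samples and was not tested.

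Th is tyrosine hydroxylase, the rate-limiting enzyme of dopamine synthesis, and it is made by a sparse amacrine type. It measured 46, 63 and 51 reads in sham and 80, 81 and 98 in ONC samples, or 1.14, 1.5 and 1.19 against 1.80, 1.85 and 2.15 RPKM. It was the only one of the 29 genes with every ONC sample above every sham sample in CPM. At a log2 fold change of 0.48 with a standard error of 0.27, it did not pass the test (edgeR adjusted p = 0.379), while limma on log2(RPKM + 1) gave 0.37 with an adjusted p of 0.0965. The other genes of the list had no such separation. Ddc, the next enzyme of the path, had a log2 fold change of -0.41 with a standard error of 0.58. Slc18a2, the vesicle transporter of dopamine and other monoamines, was at 0.01 with a standard error of 0.17, and Nos1, the neuronal nitric oxide synthase, at -0.09 with a standard error of 0.23, or 0.03 on the scale of all gene reads.

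Promoters of 23 of the 32 genes, 29 in all, were found in the RefSeq table of GRCm38.p6. Each covers 250 bases before to 50 after the gene start. The members are counted by gene, while the shares of all are by promoter. The cAMP response element TGACGTCA, searched on both strands, was in the promoters of Th, Slc18a2 and Pax6, and in 1.79% of all 32851 promoters searched. It was also in that of Sst, the somatostatin gene of a wide-field amacrine type that is described with the neuropeptides. The 4 stretches are shown as a description of these promoters. Th had every ONC sample above sham without passing the test, Slc18a2 and Pax6 did not pass it, and Sst fell, on 32 to 84 reads. Whether the changes of these genes differ from one another was not tested. The capitals mark the element, and each is read 5′ to 3′ on the gene's own strand, from chr7:142900003-142900070 on the minus strand for Th, chr19:59260844-59260902 on the plus strand for Slc18a2, chr2:105668790-105668857 on the plus strand for Pax6 and chr16:23890855-23890922 on the minus strand for Sst.
Th: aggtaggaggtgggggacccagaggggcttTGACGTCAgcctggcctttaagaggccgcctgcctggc
Slc18a2: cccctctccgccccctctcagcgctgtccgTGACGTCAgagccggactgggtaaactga
Pax6: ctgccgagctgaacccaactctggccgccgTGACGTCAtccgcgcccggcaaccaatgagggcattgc
Sst: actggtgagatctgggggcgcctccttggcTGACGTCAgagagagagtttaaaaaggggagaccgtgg
The AP-1 element, TGACTCA or TGAGTCA on either strand, was in no promoter of the 23 genes and in 5.2% of all promoters. ATCGAT, the core that Onecut factors bind, was found for Ddc alone among the 23 genes and in 0.925% of all promoters. A match describes letters only and says nothing of which factor was bound.

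Calb2 encodes calretinin, a calcium-binding protein of many amacrine cells, among them the AII type, and of a part of the ganglion cells. The gene lies at chr8:110142538-110168206. It measured 380.2, 382 and 398 CPM in sham and 263, 272 and 259 in ONC samples. The groups were far apart compared with the spread within them, which was 9.48 (SD, n = 3) around a mean of 387 in sham and 6.66 (SD, n = 3) around 265 in ONC samples. The log2 fold change was -0.55 with a standard error of 0.05, and a 95% interval from -0.65 to -0.44, that is, it fell by 31.5% (edgeR adjusted p = 2.62e-06). Sham was 1.46 times ONC, so that the gene lay just inside the fold limit of 1.5. It kept an adjusted p under 0.1 in all 17 alternative fits, including the 6 that left out 1 sample, where the adjusted p was at most 0.000165.

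The other amacrine genes outside the named types did not pass the test. Gjd2, the connexin of AII gap junctions, had an RPKM of 26.6, 26.2 and 24.2 in sham and 22.8, 27.0 and 27.0 in ONC samples. Its log2 fold change was -0.12 with a standard error of 0.07. C1ql2 was at -0.14 with a standard error of 0.08, with groups that did not overlap in CPM but did in RPKM. C1ql1, its paralog among the secreted C1q-like synaptic proteins, was at 0.11 with a standard error of 0.09. Ppp1r17 was at -0.02 with a standard error of 0.13, and at 0.11 on the scale of all gene reads. Dab1, the reelin adaptor found in AII cells, was at -0.16 with a standard error of 0.09 on exon reads. Lamp5 was not listed under this symbol, and the row named 6330527O06Rik, which RefSeq gives as its synonym, was added after the data were seen. This row had an RPKM of 20.8, 23.7 and 20.5 in sham and 20.8, 29.0 and 25.2 in ONC samples, with overlapping groups and a log2 fold change of 0.08 (edgeR adjusted p = 0.713).

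Among the starburst genes, Megf10 was the one with an adjusted p under 0.1. It is a cell surface receptor that spaces starburst and horizontal cells. It measured 27.9, 31.2 and 29.6 CPM in sham and 25.6, 21.8 and 22.2 in ONC samples. The groups did not overlap, but ONC sample 1 lay near the lowest sham sample. The log2 fold change was -0.35 with a standard error of 0.11, that is, it fell by 21.5% (edgeR adjusted p = 0.0823). With the replicate number as a block the adjusted p was 0.129, on the scale of all gene reads it was 0.243 (log2 fold change -0.23), and it stayed under 0.1 in 1 of the 6 fits that left out a sample, rising to 0.286 without sham sample 2. Megf11, its paralog, had a log2 fold change of -0.18 with a standard error of 0.11 and overlapping groups.

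Chat is choline acetyltransferase, which makes acetylcholine and defines the starburst cells. It had an RPKM of 3.62, 4.07 and 3.90 in sham and 5.58, 4.08 and 4.61 in ONC samples. Every ONC value lay above every sham value in RPKM, the closest being 4.08 against 4.07, but the groups overlapped in CPM. The log2 fold change was 0.18 with a standard error of 0.15 and a 95% interval from -0.11 to 0.46 (edgeR adjusted p = 0.574). Slc18a3, the vesicle transporter of acetylcholine, lies within the span of Chat, at chr14:32462437-32464850 inside chr14:32408203-32465909 in the files. It had 0 to 2 reads per sample, none of them unique, and could not be tested. Of the reads assigned to Chat, 51.0% lay on introns, and whether these include reads of Slc18a3 was not tested. Sox2, a factor that starburst cells share with Müller glia, had 125 to 212 exon reads, none of them unique, and it lies within the span of Sox2ot. Its log2 fold change of -0.25 with a standard error of 0.19 is therefore uncertain beyond this error.

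The horizontal cell genes were the list with the lowest median. Prox1, a homeobox factor of horizontal cells that AII amacrine and bipolar cells also make, lies at chr1:190121775-190170680. It measured 102, 110.4 and 105 CPM in sham and 95, 72.6 and 85.5 in ONC samples. The groups did not overlap in CPM, with ONC sample 1 nearest to sham, but did in RPKM. The log2 fold change was -0.33 with a standard error of 0.08, that is, it fell by 20.4% (edgeR adjusted p = 0.0265). On the scale of all gene reads it was -0.21 (adjusted p = 0.133), and of the 6 fits that left out a sample 3 kept the call, with adjusted p from 0.000166 without ONC sample 1 to 0.172 without sham sample 2.

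Calb1 encodes calbindin, the classical horizontal cell marker of the mouse, which some amacrine and ganglion cells also hold. The gene lies at chr4:15881264-15906709. It measured 94.2, 97.9 and 96.7 CPM in sham and 77.3, 86.9 and 81.4 in ONC samples. The groups did not overlap in CPM but did in RPKM. The log2 fold change was -0.23 with a standard error of 0.07, that is, it fell by 15% (edgeR adjusted p = 0.0613). On the scale of all gene reads it was -0.11 (adjusted p = 0.426), and the call held in 2 of the 6 fits that left out a sample, with an adjusted p of 0.219 without sham sample 2.

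The remaining 4 horizontal cell genes were of low level and did not pass the test. Lhx1, which places horizontal cells in their layer, measured 4.47, 5.66 and 5.89 CPM in sham and 3.53, 2.98 and 3.90 in ONC samples. The groups did not overlap, and the log2 fold change was -0.62 with a standard error of 0.25 (unadjusted p = 0.0208, edgeR adjusted p = 0.199). Onecut1, a factor needed to make horizontal cells, had 30, 44 and 57 reads in sham and 19, 43 and 24 in ONC samples, with overlapping groups. It had the lowest log2 fold change of the 29, -0.83 with a standard error of 0.42 (edgeR adjusted p = 0.328). Its paralogs Onecut2 and Onecut3 were at -0.16 and -0.29, with standard errors of 0.20 and 0.22. The groups of Onecut3 did not overlap in CPM but did in RPKM. The sign of Onecut2 was positive when all reads on the gene were counted (0.01).

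**Figure D3:**
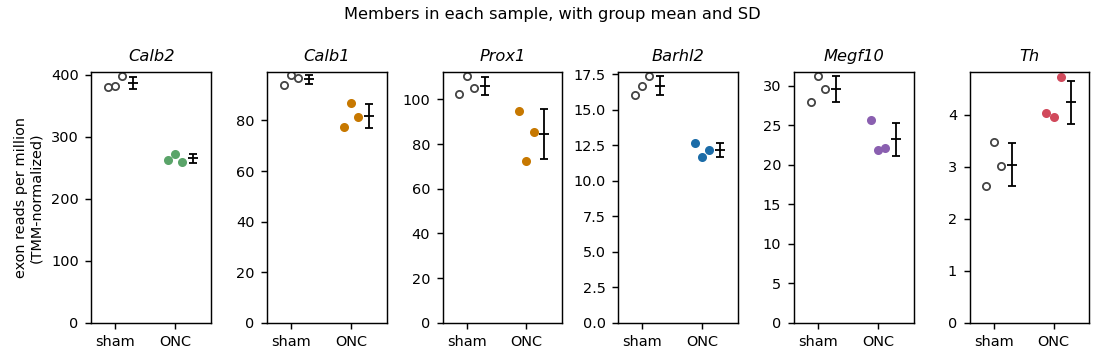
TMM-normalized exon reads in CPM (y axis, from 0, a scale for each gene) of the 5 genes that fell and of Th in each sample (open circles sham, filled circles ONC), with the group mean and SD (n = 3) to the right of the points. In Calb2 the ONC samples lie between 259 and 272 and the sham samples between 380.2 and 398, while in Prox1 and Megf10 one ONC sample lies close to sham.

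The intron reads of a gene, which usually come from RNA that is not yet spliced, were compared as a second measure. Of the 19 genes with enough intron reads, 9 were lower and 10 higher in ONC samples, with a median log2 fold change of 0.02, and 1 passed an adjusted p of 0.1. The share of all 13391 genes that were lower at this limit was 2.24%. This gene was Dab1, with 312, 399 and 696 intron reads in sham and 202, 270.0 and 278 in ONC samples. The groups did not overlap, but sham sample 3, the sample with the lowest exon share, stood apart from the other sham samples. The log2 fold change was -0.86 with a standard error of 0.22 (edgeR adjusted p = 0.0821), and the call was lost in 5 of the 6 fits that left out a sample, all but that without sham sample 1. Meis2 was next at -0.70 with a standard error of 0.23 (edgeR adjusted p = 0.149).

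The genes that fell on exon reads had few intron reads or wide errors. Calb2 had 39 to 80 intron reads per sample and an intron log2 fold change of 0.10 with a standard error of 0.34. Prox1, with 416 to 581 intron reads, was at -0.13 with a standard error of 0.18. Calb1 and Megf10 were at -0.36 and -0.31 with standard errors of 0.30 and 0.31, and Barhl2, with 6 to 33 intron reads, at 0.80 with a standard error of 0.63. The 4 horizontal cell genes tested had intron values below 0, with a median of -0.34, and none passed (edgeR, with 0 also at an unadjusted p under 0.05). No test between exon and intron changes was made. Counted as all reads on the gene, exons and introns together, 3 of the 29 genes had an adjusted p under 0.1, which were Calb2, Prox1 and Dab1. Of all 13670 genes, 784 were lower and 359 higher at this limit on the same count.

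**Figure D4:**
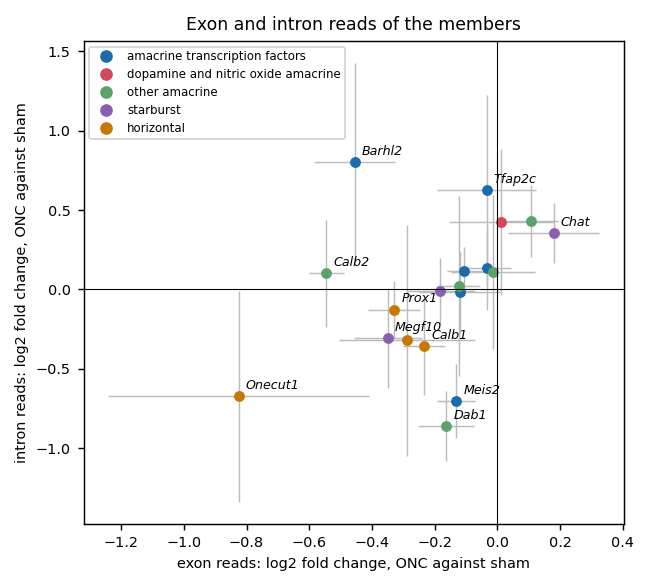
Log2 fold change on intron reads (y axis) against that on exon reads (x axis), ONC against sham, for the 19 genes with enough of both (bars are 1 standard error). Calb2 lies at -0.55 on exons and 0.10 on introns, and Dab1 at -0.16 on exons and -0.86 on introns.

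Ratios of related genes within a sample do not depend on the scale. The exon reads per kilobase of Calb2 were 8.09, 7.82 and 8.24 times those of Calb1 in sham and 6.82, 6.28 and 6.38 times in ONC samples. Every ONC ratio lay below every sham ratio, and the mean log2 ratio differed by -0.31 (two-sided exact permutation test, p = 0.1, which is the smallest this design allows; Benjamini-Hochberg adjusted p = 0.333 over 5 pairs). The log2 ratio of Megf10 to Megf11 differed by -0.16, that of Tfap2a to Tfap2b by -0.09, that of Onecut1 to Onecut2 by -0.66 and that of C1ql1 to C1ql2 by 0.25, and their exact p ranged from 0.2 to 0.5. Chat to Slc18a3 and Th to Ddc had under 10 reads in a sample and were not compared.

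Other genes of the same cells were taken from 5 lists. The first held 6 genes of inhibitory transmission and glutamate transport. Gad1 and Gad2, which make GABA, had log2 fold changes of -0.02 and -0.14. Slc32a1, the vesicle transporter of GABA and glycine, was at -0.04 and the glycine carrier Slc6a9 at 0.07. The glutamate transporter Slc17a8 was at -0.09. The standard errors were 0.06 to 0.12. None of the 6 passed in edgeR, and 0 were at an unadjusted p under 0.05. Of the 8 genes of dopamine and acetylcholine handling, 5 were tested and none passed (0 at an unadjusted p under 0.05), with a median of -0.07. Of the 3 further horizontal cell genes, 2 were tested and none passed (0 at an unadjusted p under 0.05), with Gja10, a horizontal cell connexin, at 0.25.

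Of the 27 tested genes of the related lists, 3 were lower and 1 was higher with an adjusted p under 0.1. The shares of all genes were 3.72% and 2.38%. Those that passed were neuropeptides and further transcription factors, few in each list. Tac1, the precursor of substance P, had an RPKM of 16.6, 13.1 and 16.9 in sham and 28.9, 33.6 and 31.5 in ONC samples. It rose, with every ONC sample above sham, by a log2 fold change of 0.89 with a standard error of 0.12 (edgeR adjusted p = 6.48e-05). Sst had an RPKM of 5.08, 4.32 and 5.73 in sham and 2.11, 2.62 and 2.57 in ONC samples. It fell, on 32 to 84 reads, by 1.18 on the log2 scale with a standard error of 0.30 (edgeR adjusted p = 0.0331), a call lost without sham sample 3 (adjusted p = 0.20) and without ONC sample 3 (0.101). Penk, the enkephalin precursor, had an RPKM of 4.87, 7.18 and 5.64 in sham and 4.06, 10.7 and 20.8 in ONC samples, so that the ONC samples lay on both sides of sham and it did not pass (log2 fold change 0.88, edgeR adjusted p = 0.175). It passed in 3 of 17 alternatives, with scaling by all reads on genes (adjusted p = 0.0175), without a filter (2.62e-07) and without ONC sample 1 (2.62e-05), and its log2 fold change was 0.18 without ONC sample 3 and 1.28 without ONC sample 1. Vip, Npy and Cck were at -0.02, 0.21 and -0.04.

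Of the 10 further transcription factors, 8 were tested and 2 fell, where 3.72% of all genes were lower at this limit. Ebf1, of a family made by amacrine and ganglion cells, had an RPKM of 4.51, 5.42 and 4.31 in sham and 3.43, 2.45 and 3.38 in ONC samples. Its log2 fold change was -0.74 with a standard error of 0.17 (edgeR adjusted p = 0.0122, and 0.104 without sham sample 2). Ebf3 was at -0.30 with a standard error of 0.09 (edgeR adjusted p = 0.0666), but at -0.18 on the scale of all gene reads (adjusted p = 0.286), with a replicate block at an adjusted p of 0.102, and in 2 of the 6 fits that left out a sample under 0.1, with 0.263 without sham sample 2. Isl1, which starburst, bipolar and ganglion cells make, was at -0.02, and Fezf1, Lhx9, Bhlhe22 and Maf did not pass either.

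**Figure D5:**
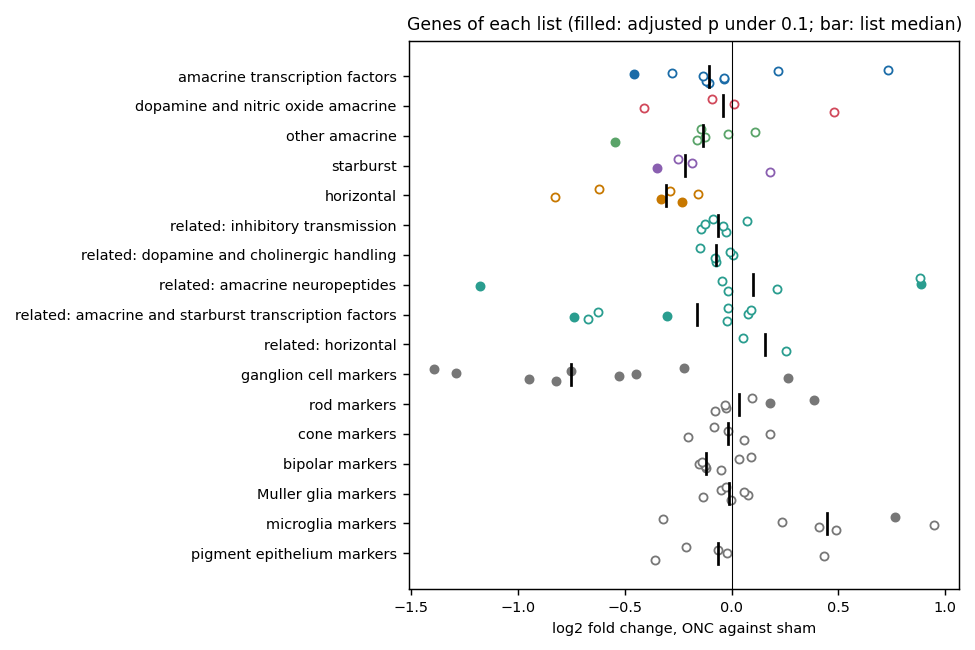
Log2 fold change, ONC against sham (x axis), of the tested genes of each list (y axis; filled points have an adjusted p under 0.1, short bars are list medians), with the amacrine, starburst and horizontal lists above, related lists in the middle and markers of other retinal cells below. The ganglion cell markers spread from -1.39 to 0.26, and the horizontal cell list has the lowest median of the 5 main lists, -0.31.

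The markers of the other retinal cells stood as follows beside these genes. The 9 ganglion cell markers had a median log2 fold change of -0.75, with Pou4f2 at -1.39, Nefh at -1.29, Sncg at -0.95, Rbpms at -0.82, Pou4f1 at -0.75, Nefl at -0.53, Nefm at -0.45, Thy1 at -0.22 and Slc17a6 at 0.26, all with an adjusted p under 0.1. Of the 6 rod markers 2 were higher with an adjusted p under 0.1, Sag by 0.39 and Pde6b by 0.18. The summed RPKM of the 6 was 18842 to 19617 in sham and 20631 to 21960 in ONC samples. Of the 6 microglia markers 1 was higher with an adjusted p under 0.1, Itgam by 0.76. Without regard to the test 5 were higher and 1 was lower, and 3 had an unadjusted p under 0.05 in edgeR. The summed RPKM of the 6 was 4.94 to 6.96 in sham and 6.89 to 9.17 in ONC samples. None of the 5 cone, 7 bipolar, 6 Müller glia or 5 pigment epithelium markers passed (edgeR, with 1, 1, 1 and 0 at an unadjusted p under 0.05). Their summed RPKM was 563 to 620.1 in sham and 565 to 690 in ONC samples for cones, 233 to 263 and 264 to 266 for bipolar cells (whose median log2 fold change on the TMM scale was -0.12, with 5 of 7 lower), 1057 to 1180 and 1177 to 1192 for Müller glia, and 47.7 to 72.3 and 45.1 to 71.0 for pigment epithelium. The part of ganglion cells in the falls of Calb2, Barhl2, Calb1, Ebf1 and Ebf3, which these cells can also express, was not tested.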

How the data were processed

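RNA of whole retinas from 3 ONC and 3 sham samples, grouped by the treatment label, was sequenced in pairs on the Illumina HiSeq2000. With CLC Genomics Workbench 6.0.1 the authors aligned the pairs and deposited, per gene, the counts of total and unique reads on exons and on whole genes, not normalized, and the RPKM, scaled by all reads on genes. The paper and the labels name mm9, while the positions in the files match GRCm38.

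Total exon reads were compared for 13670 genes, those whose mean RPKM exceeded 0.3 in one group or both, with edgeR 4.0.16 in R 4.3.3 (TMM, quasi-likelihood F test, Benjamini-Hochberg adjustment over all genes), which stands in for the study's test on RPKM. The standard error was the log2 fold change over the square root of F, and a 95% interval is 1.96 standard errors. Intron reads are gene minus exon reads (13391 genes). Log2 fold changes are ONC against sham. Alternatives used DESeq2 1.42.0, limma 3.58.1 on log2(RPKM + 0.1) and log2(RPKM + 1), other scalings, filters and read classes, a replicate block and leaving out each sample.

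The members, lists and tests were chosen with earlier results of these data known. All members were named, and of related genes and markers those with an adjusted p under 0.1; others named were chosen after their values were seen. Single values of 3 related genes are not reported here. P-values measure the spread between pools. Other computations used Python 3.11.15.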

Additional observations from a re-analysis of the deposited data

How the results depend on the processing

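The count of 0 genes past both limits was the same in every alternative run. The 5 genes with an adjusted p under 0.1 became 1 with scaling by all reads on genes (Calb2), 1 with limma on log2(RPKM + 0.1) (Calb2), 2 with limma on log2(RPKM + 1) (Calb2 and Th) and 3 with total gene reads (Calb2, Prox1 and Dab1). Leaving out 1 sample gave 1 (Calb2) without sham sample 2 or sham sample 3, and 3 without sham sample 1. It gave 2 without ONC sample 2 or ONC sample 3. Without ONC sample 1 there were 8, with Megf11, Meis2 and Tfap2b added. The numbers of all genes lower and higher at this limit moved as well, from 508 and 325 in the main fit. They were 223 and 1507 with scaling by all reads on genes, and 784 and 359 with total gene reads. Without ONC sample 1 they were 1270 and 779, and without sham sample 2 they were 220 and 153. With the replicate number as a block, 4 genes passed, Megf10 being lost; the ratios of related genes were not fitted with a block. Same-numbered ONC and sham samples did not deviate together (correlations of -0.05, -0.03 and 0.0026). With 3 samples a group these values cannot show whether the pools were handled in pairs. Calb2 held in all 17 alternatives, and Prox1, Barhl2, Calb1 and Megf10 kept their sign in all of them.

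The median of the amacrine transcription factors, -0.11, was 0.0152 with scaling by all reads on genes and 0.0171 and 0.0168 with limma at the pseudocounts 0.1 and 1, and ranged from -0.1571 to -0.006 when 1 sample was left out (the highest without ONC sample 3). That of the other amacrine genes, -0.13, was -0.0103, -0.0117 and -0.0111 under the same 3 settings, -0.09 with total gene reads, and -0.1629 to -0.1108 with 1 sample left out. That of the horizontal cell genes, -0.31, was -0.1898, -0.1814 and -0.1556 under the same 3 settings. The 1 gene on intron reads, Dab1, became 2 with scaling by all reads on genes (Meis2 added) and 3 without a filter (Meis2 and Onecut2 added), and 0 to 2 with 1 sample left out.

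Signs that changed belonged to genes that did not pass with all 6 samples. With scaling by all reads on genes Pax6 was at 0.02, Tfap2b at 0.0848, Tfap2c at 0.0849, Nos1 at 0.0278 and Ppp1r17 at 0.11. With limma at a pseudocount of 0.1, Pax6 was at 0.02, Tfap2b at 0.0798, Tfap2c at 0.0777 and Ppp1r17 at 0.12, and at a pseudocount of 1 Pax6 was at 0.02, Tfap2b at 0.0766, Tfap2c at 0.0604, Nos1 at 0.0052 and Ppp1r17 at 0.11. With total gene reads Tfap2b was at 0.0069, Tfap2c at 0.0334, Ppp1r17 at 0.0218 and Onecut2 at 0.0096. With 1 sample left out, Tfap2b ranged from -0.16 to 0.0255, Tfap2c from -0.15 to 0.0858, Neurod6 from -0.0767 to 0.39, Slc18a2 from -0.11 to 0.15, Nos1 from -0.34 to 0.10, Ppp1r17 from -0.16 to 0.0750 and Onecut2 from -0.29 to 0.0656. The other 21 tested genes kept their sign throughout. With scaling by all reads on genes the median of all genes moved by 0.12, and Pax6, Tfap2b, Tfap2c, Nos1 and Ppp1r17 kept their side of that median. The limma fits used RPKM, which is scaled by all reads on genes as well. In them the median of all genes moved by 0.12 and 0.10 at the pseudocounts 0.1 and 1. The cause of the other shifts was not tested. With 3 pools a group, and 5 genes under 100 reads in every sample, even differences above 1.5-fold could go unresolved in the low genes. Onecut1, 1.77 times as high in sham, and Gbx2, 1.66 times as high in ONC samples, did not pass.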
